A study of Homo sapiens with 39 samples.

Results

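The 10 genes described here encode transcription factors of the AP-1 group: the Jun genes JUN, JUNB and JUND, the Fos genes FOS, FOSB, FOSL1 and FOSL2, and ATF3, MAFF and BATF3. They were chosen by gene symbol from the 60671 distinct gene identifiers of the expression table, and all 10 were found. RNA-seq of polyadenylated RNA covered 39 libraries from a pair of human melanoma cell lines in common use, A375 and WM115. Each line was sampled as unedited cells (WT) and as clones that lack an enhancer region of SOX10, a gene for a neural crest and melanocyte transcription factor. The deleted region is R1 in clones 1.1 and 1.2 and R4 in clones 4.1 and 4.2. A375 gave 4 WT libraries, 3 of clone 1.1, 4 of clone 1.2, 4 of clone 4.1 and 3 of clone 4.2. WM115 gave 4 WT libraries, 5 of clone 1.1 and 3 each of clones 1.2, 4.1 and 4.2. A further WM115 clone, 1.3, has 3 libraries, a clone number of the R1 series and a genotype label of R4, so it was kept as a group of its own. The labels name no drug or other treatment. Libraries of a clone repeat that clone and are not said to come from separate cultures, so p-values measure the spread between these libraries.

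AP-1 is a dimer of basic leucine zipper proteins. Jun proteins pair with one another or with Fos proteins, Fos proteins need a Jun partner, and the dimers bind the TPA response element TGACTCA or the related cAMP response element TGACGTCA. FOS, FOSB, JUN, JUNB and ATF3 are textbook immediate early genes, whose RNA appears within minutes of growth factor, MAP kinase or stress signals and decays quickly, while FOSL1 RNA and protein last longer under sustained ERK signalling. BATF3 pairs with Jun proteins, and MAFF is a small Maf protein without a transactivation domain that binds DNA as a homodimer or with a partner such as NRF2. In melanoma, ERK signalling driven by BRAF mutation, which both lines are known to carry, is a recognised driver of FOSL1 expression.

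Expression is given in TPM, a length-corrected share of the transcripts of each library. Between 14084 and 16140 genes reached 1 TPM in a library, and read depth is unknown because counts were not used here. Mitochondrially encoded genes took 0.968% to 4.92% of TPM in A375 and 4.71% to 19.4% in WM115. Genes for cytosolic ribosomal proteins took 17.9% to 28.1% of TPM in A375. In WM115 they took 12.0% to 13.6% in the 4 WT libraries, 11.5% in library 3 of clone 1.3, and 16.2% to 18.6% in the other 16 clone libraries. Library 3 of WM115 clone 1.2 stood furthest from the other groups of its line (mean correlation across genes 0.903) and had 9.56 TPM of SOX10, against 272 and 279 in the other libraries of that clone and 449 to 553 in WT. Of 12 melanocytic marker genes, 9 had a mean under 1 TPM in A375, TYR, PMEL, MLANA and DCT among them, while 3 did in WM115. SOX10 was at 381 to 876 TPM in the 18 A375 libraries.

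AP-1 genes are themselves known targets of AP-1 and CREB family factors. The RefSeq promoter table (GRCh38.p14, 250 bases before to 50 bases after each start) matched 8 of the 10 members, all but FOSL1 and BATF3. The promoters were searched on both strands for TGACTCA, TGACGTCA and TGACATCA, the last being the variant known from the JUN promoter, and 5 of the 10 promoters of these members held a match. Over all 34943 promoters of the table, 9.15% held 1 of the 3 motifs: 4.96% TGACTCA, 1.84% TGACGTCA and 2.61% TGACATCA. Of the member promoters, 1 held TGACTCA, 2 TGACGTCA and 2 TGACATCA. The JUN match was fixed by the choice of TGACATCA, so the member count is not a test against these shares. The 5 matches are shown 5′ to 3′ on the strand of the gene, with the motif in capitals. A match describes the sequence and is not evidence of binding.
JUN, chr1:58784096-58784125, minus strand: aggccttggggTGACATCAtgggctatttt
JUND, chr19:18281804-18281833, minus strand: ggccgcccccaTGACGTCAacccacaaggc
FOSL2, chr2:28392851-28392879, plus strand: tgccattgtagTGACTCAtctcgggcaga
ATF3, chr1:212565273-212565302, plus strand: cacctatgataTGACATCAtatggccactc
MAFF, chr22:38201929-38201958, plus strand: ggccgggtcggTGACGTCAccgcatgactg
JUN and ATF3 carry the same 8 letters, as do JUND and MAFF, and the FOSL2 match is the TPA response element that a Jun-Fos dimer binds. Counted from the RefSeq starts, the matches begin 67 bases before JUN, 200 before JUND, 123 before ATF3 and 54 before MAFF. The FOSL2 match begins 5 bases after its RefSeq start. Gene positions given elsewhere are those of GENCODE, whose starts differ from these. By the GENCODE positions the JUN, FOSL2 and MAFF matches lie inside the gene, and the JUND and ATF3 matches lie before it. MAFF, for example, starts at 38200767 in GENCODE.

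All 10 members were expressed in both lines, with 1 TPM or more in every library except 1 WM115 library for FOS and 1 for FOSB. FOSL1, which encodes FRA1, was by far the most abundant Fos gene: it made up 72.4% to 96.5% of the summed TPM of the 4 Fos genes in the 18 A375 libraries and 73.8% to 96.1% in the 21 of WM115. FOSL2, the gene of FRA2, gave 1.40% to 8.44% in A375 and 1.62% to 25.4% in WM115. FOS reached at most 14.3% and 12.9%, and FOSB 6.09% and 1.24%. Among the Jun genes JUND, the least inducible of the family, was the most abundant in 15 of 18 A375 libraries and in 21 of 21 WM115 libraries, with JUNB ahead in the other 3. JUN itself contributed 0.652% to 10.9% of Jun-gene TPM in A375 and 2.72% to 19.02% in WM115. In both lines the RNA pool of the Jun and Fos genes was therefore mostly JUND, JUNB and FOSL1.

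**Figure D1:**
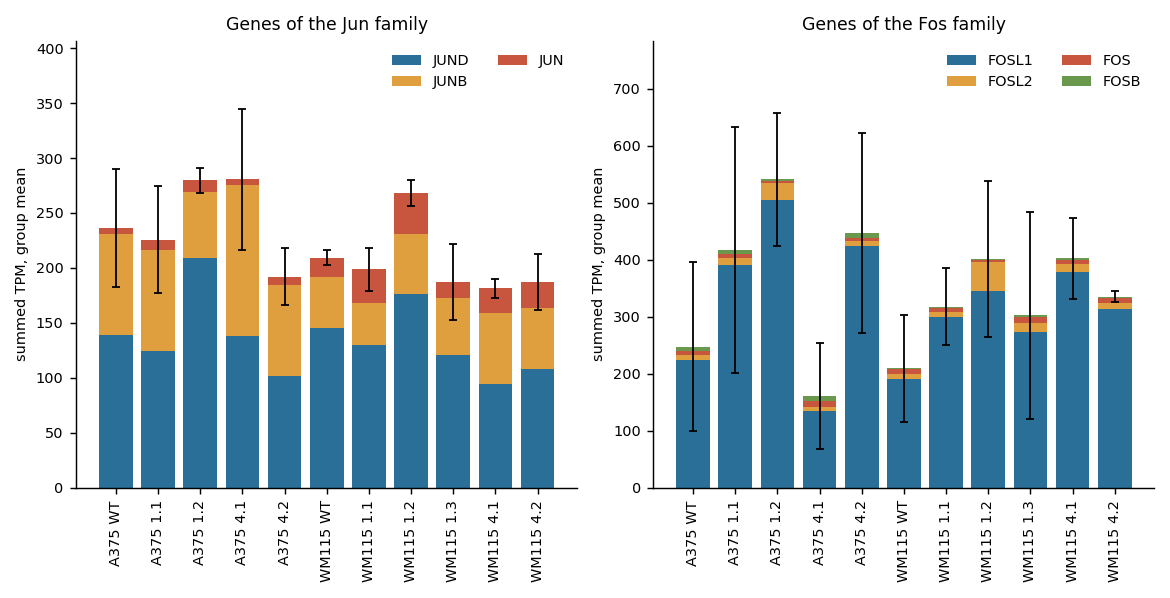
Summed TPM of the 3 Jun genes (left) and the 4 Fos genes (right) in each group, as stacked group means, with error bars for the SD of the summed TPM over the libraries of the group. JUND and JUNB fill most of the Jun bars, and FOSL1 nearly all of each Fos bar, in the 11 groups.

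The unedited lines differed most in MAFF. MAFF was at 15.5, 17.2, 18.0 and 16.6 TPM in the 4 A375 WT libraries and at 237, 217, 105 and 249 TPM in the 4 of WM115, with no overlap. In bulk RNA, fewer cells of a kind and less RNA per cell cannot be told apart. The MAFF difference, A375 minus WM115, was -3.44 ± 0.42 (SE) in log2(TPM + 1), a 10.8-fold lower level (adjusted p = 3.6e-08, from limma with Benjamini-Hochberg adjustment over 18662 genes, as throughout for this comparison). Differences on this scale understate the change of genes at low TPM. ATF3, a stress-induced factor, was at 1.999, 3.13, 2.71 and 5.82 TPM in A375 WT and at 14.1, 13.3, 8.02 and 17.1 in WM115 WT. JUN was at 4.87, 2.92, 4.25 and 12.1 TPM against 13.5, 12.51, 26.4 and 18.9. Both were lower in A375, ATF3 by 3.25-fold (limma adjusted p = 0.00014) and JUN by 2.87-fold (limma adjusted p = 0.0053), and for both genes the A375 libraries all lay below those of WM115. FOSB went the other way, at 6.25, 5.32, 9.44 and 7.32 TPM in A375 against 1.68, 1.95, 2.01 and 1.34, a 2.91-fold higher level (limma adjusted p = 3.7e-05).

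A call required a log2 difference of at least 1 in size together with a limma adjusted p under 0.05. By this rule 4 of the 10 members differed between the unedited lines, where 20% of all genes tested were called. On adjusted p alone it was 5 members, beside 48.8% of all genes, and the libraries of the same number did not overlap, beside 41.6%. JUNB was 1.94-fold higher in A375 WT (adjusted p = 0.00017 with limma) and fell just short of the minimum difference, which JUNB passed without A375 WT library 4 or WM115 WT library 1 (1.13 and 1.04). JUND, FOS, FOSL1, FOSL2 and BATF3 were not called, and their libraries overlapped between the lines. The calls for JUN and ATF3 were lost when the ribosomal protein share was added to the fit as a term, with differences of -0.45 and -0.70. That share differed between the lines, as given above, and its part in the result was not tested.

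**Figure D2:**
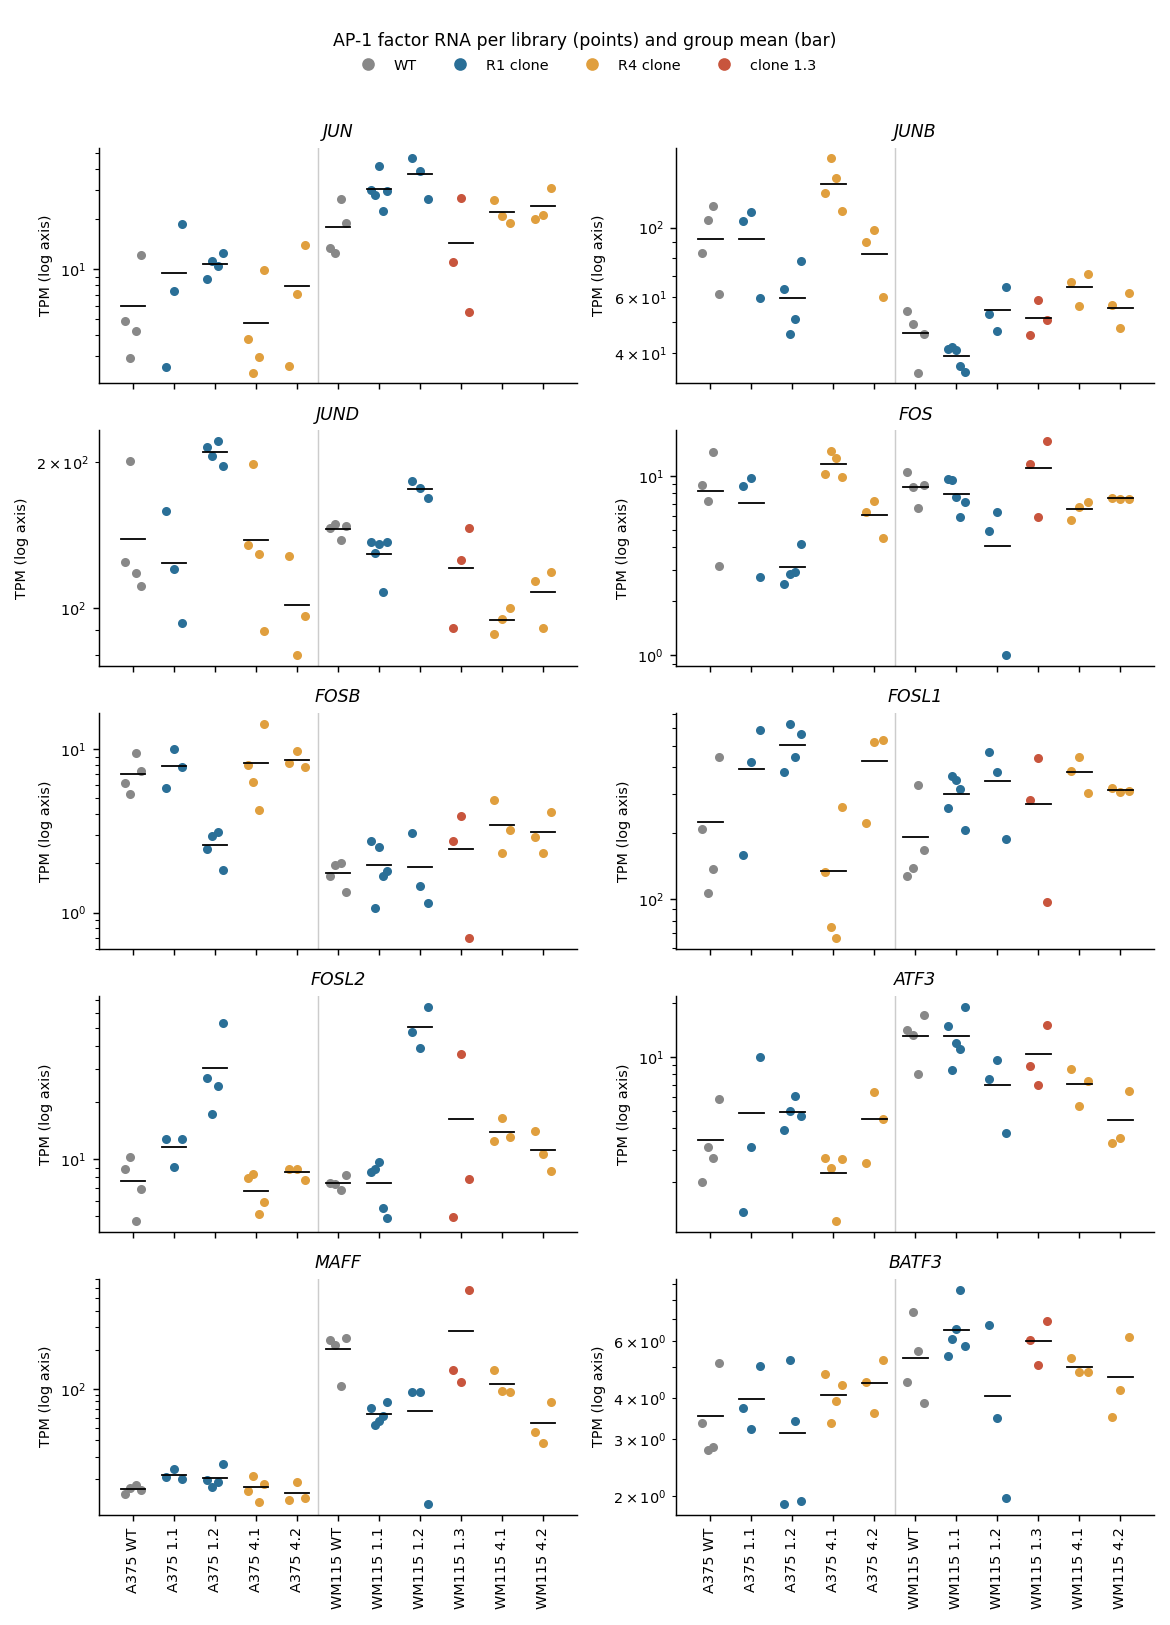
TPM of each of the 10 genes in every library (points, log axes) by line and clone, with the group mean as a bar; grey is WT, blue R1 clones, orange R4 clones and red clone 1.3 of WM115. MAFF is higher in all but 1 of the WM115 libraries than in every A375 library, and FOSL2 is high in clone 1.2 of both lines.

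The next comparison asked whether clones with a deletion differed from WT of their line in AP-1 factor RNA. FOSL2 was higher in the clones numbered 1.2, which are separate R1 clones of each line. In A375 it was at 8.88, 10.2, 4.68 and 6.88 TPM in WT and at 26.9, 17.4, 24.3 and 52.8 TPM in clone 1.2. The 4 libraries of the clone lay above every WT library, and the log2 difference was 1.79 ± 0.27 (SE), or 3.45-fold (limma adjusted p = 0.00046). In WM115 it was at 7.47, 7.40, 6.83 and 8.20 TPM in WT and at 47.1, 39.1 and 64.5 TPM in clone 1.2. The WM115 difference was 2.57 ± 0.41 (SE), or 5.93-fold (limma adjusted p = 0.00049), again without overlap.

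The other R1 clone did not share this rise. FOSL2 was at 12.7, 9.11 and 12.8 TPM in A375 clone 1.1, a log2 difference from WT of 0.57. In WM115 clone 1.1 it was at 8.50, 8.85, 9.66, 5.50 and 4.86 TPM, a difference of -0.04. Compared directly, clone 1.1 was lower than clone 1.2 by 2.33-fold in A375 (limma adjusted p = 0.012) and by 6.09-fold in WM115 (limma adjusted p = 7.8e-05). WM115 clone 1.3 held libraries at 4.89, 36.0 and 7.85 TPM, so 1 of its 3 libraries lay far above the others and below the lowest library of clone 1.2. In the R4 clones FOSL2 was at 5.12 to 8.87 TPM in A375 and at 8.61 to 16.4 TPM in WM115, and was not called in any of them. Every library of WM115 clones 4.1 and 4.2 nevertheless lay above the highest of WT (8.20 TPM), with differences of 0.82 and 0.50. The WM115 call for clone 1.2 was lost with the ribosomal protein share as a term (log2 difference 1.71, limma adjusted p = 0.33). The A375 call for clone 1.2 was lost with the replicate number added to the fit as a block (limma adjusted p = 0.0504).

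FOSB fell in A375 clone 1.2, and FOS in WM115 clone 1.2. FOSB was at 2.45, 2.93, 3.13 and 1.81 TPM in A375 clone 1.2, below each WT library, and fell by 1.17 on the log2 scale (limma adjusted p = 0.0099). It was also below clone 1.1, which had 5.79, 10.03 and 7.79 TPM (2.46-fold higher in clone 1.1, limma adjusted p = 0.0067). FOS was at 2.51, 2.83, 2.91 and 4.15 TPM in A375 clone 1.2 and at 8.86, 7.27, 13.5 and 3.16 TPM in WT. That difference of -1.05 was not called (limma adjusted p = 0.072), and the lowest WT library, library 4, overlapped the clone. Without that library the FOS difference was -1.38 (limma adjusted p = 0.011), and without library 3 of clone 1.1, which enters the shared spread, it was called as well (limma adjusted p = 0.029). In A375 within the libraries of low mitochondrial share alone, the FOSB difference was -0.98 and was not called (limma adjusted p = 0.23).

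In WM115 clone 1.2 FOS was at 4.94, 6.26 and 0.999 TPM, against 10.5, 8.69, 6.66 and 8.94 TPM in WT, and fell by 1.12 on the log2 scale (limma adjusted p = 0.023). It was also lower than in clone 1.1 (2.003-fold higher in clone 1.1, limma adjusted p = 0.020), although library 2 of clone 1.2 lay within the range of clone 1.1. Both calls were lost without library 3, the one at 9.56 TPM of SOX10: the differences were then -0.55 from WT and 0.43 between the clones (limma adjusted p = 0.22 and 0.25). The FOS difference from WT was -1.03 without WT library 1 (limma adjusted p = 0.059), and that between the clones was 0.94 without library 1 or library 2 of clone 1.1, under the minimum size. FOSB in WM115 clone 1.2, at 3.09, 1.46 and 1.14 TPM, showed a difference of 0.03 from WT.

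FOSL1 was higher in most clones than in WT on average, but was called in none. In A375 it was at 210, 107, 138 and 443 TPM in WT, 159, 422 and 591 TPM in clone 1.1 and 381, 628, 443 and 567 TPM in clone 1.2. Clone 4.1 had 133, 74.4, 66.4 and 262 TPM and clone 4.2 had 222, 518 and 532 TPM. The libraries of clone 1.2 and WT overlapped through WT library 4. The clone 1.2 difference was 1.36 (limma adjusted p = 0.11), and without WT library 4 it was 1.76 (limma adjusted p = 0.037). Between the R4 clones FOSL1 was lower in 4.1 than in 4.2 by 1.77 on the log2 scale, which was not called (limma adjusted p = 0.076). That FOSL1 difference was called without library 4 of clone 4.1 or library 1 of clone 4.2, at -2.17 and -2.19 (limma adjusted p = 0.027 and 0.040), and without library 1 of clone 1.1 or WT library 4.

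FOSL1 levels moved with the ribosomal protein share of the library in A375. WT library 4, with 443 TPM of FOSL1, had a ribosomal share of 18.9%, and WT library 2, with 107 TPM, had 27.3%. The 8 A375 libraries above 400 TPM had shares of 17.9% to 20.4%. With the share as a term the clone 1.2 difference was 0.81 (limma adjusted p = 0.045, under the minimum size for a call), and its part in the spread was not tested. In WM115 FOSL1 was at 128, 139, 332 and 167 TPM in WT and between 97.2 and 470 TPM in the clones. Its largest difference there, 1.07 in clone 4.1 (383, 446 and 306 TPM), was not called (limma adjusted p = 0.062), and WT library 3 overlapped that clone. Without WT library 3, FOSL1 was called higher in WM115 clones 1.1, 1.2 and 4.1, at 1.03, 1.16 and 1.37 (limma adjusted p = 0.047, 0.046 and 0.019). The clone 4.1 difference was also called without library 3 of clone 1.2 or library 2 or 3 of clone 1.3. Over all alternatives the lowest FOSL1 difference was below 0, at -0.47 in WM115 clones 1.1 and 1.2 and -0.30 in clone 4.1.

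**Figure D3:**
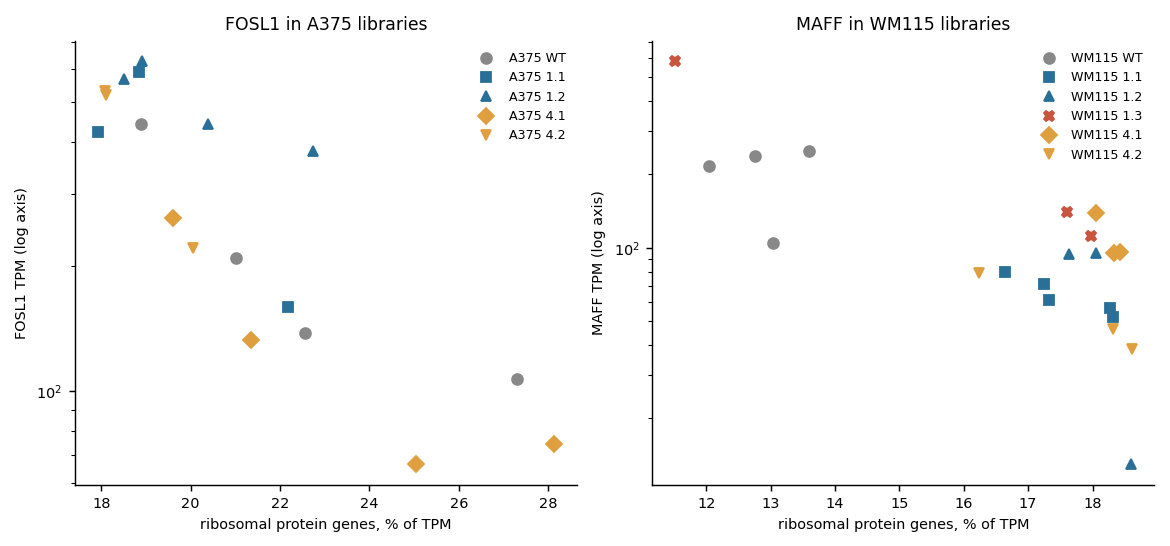
FOSL1 TPM in A375 (left) and MAFF TPM in WM115 (right), on log axes, against the share of TPM in genes for cytosolic ribosomal proteins in each library, with symbols for the clones. In A375 the libraries with the most FOSL1 lie at the low end of the share, and in WM115 the 4 WT libraries and library 3 of clone 1.3 lie apart from the other 16 libraries along the horizontal axis.

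Among the Jun genes 1 call was made. JUN was at 13.5, 12.51, 26.4 and 18.9 TPM in WM115 WT and at 46.3, 39.04 and 26.5 TPM in clone 1.2. The clone lay above WT by 2.07-fold (limma adjusted p = 0.041), with 0.123 TPM between its lowest library and the highest of WT. This call was lost when any library of clone 1.2 was left out, and also without WT library 1, 2 or 4. WM115 clone 1.1 had 29.8, 27.9, 41.4, 22.3 and 29.4 TPM of JUN, a difference of 0.76 that was not called. In A375 clone 1.2 JUN was at 8.73, 11.1, 10.4 and 12.48 TPM, a difference of 0.88 from WT, which was not called.

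JUND and JUNB differed from WT by smaller amounts in WM115. On adjusted p alone 2 of 10 members passed in clone 4.1, beside 24.2% of all genes, and 3 of 10 in clone 4.2, beside 20.3%. JUND was at 146, 149, 138 and 147 TPM in WM115 WT, the narrowest range in relation to its mean of any member in that group. It was at 88.4, 95.1 and 99.8 TPM in clone 4.1 and at 114, 91.1 and 119 TPM in clone 4.2, below WT in each library. The differences of -0.62 and -0.43 had limma adjusted p-values of 0.0031 and 0.028 and were under the minimum size for a call. JUNB was at 67.1, 56.6 and 71.0 TPM in clone 4.1, above the 34.6 to 54.4 TPM of WT (log2 difference 0.50, limma adjusted p = 0.023). In the R1 clone 1.2 JUND was at 183, 177 and 169 TPM, above WT, but with a difference of 0.28 (limma adjusted p = 0.14).

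In A375 no Jun gene was called in any clone. JUND was highest in clone 1.2, at 214, 206, 221 and 196 TPM, where WT library 2 reached 201 TPM and the other WT libraries 111 to 125. JUNB was highest in clone 4.1, at 129, 166, 144 and 113 TPM, against 83.2, 105, 117 and 61.5 TPM in WT and 89.9, 97.99 and 60.03 TPM in clone 4.2. The 4 libraries of clone 4.1 lay above those of 4.2, with a difference of 0.75 (limma adjusted p = 0.12).

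MAFF was called lower in 3 of the 5 WM115 clones and in none of A375. It was at 71.1, 52.1, 56.5, 61.2 and 79.7 TPM in clone 1.1, against 237, 217, 105 and 249 TPM in WT, and fell by 1.58 ± 0.50 (SE) on the log2 scale (limma adjusted p = 0.031). In clone 4.2 it was at 46.6, 38.5 and 78.8 TPM and fell by 1.86 ± 0.57 (limma adjusted p = 0.029). In clone 1.2 it was at 94.3, 95.1 and 12.95 TPM and fell by 1.94 ± 0.57 (limma adjusted p = 0.023). In these 3 clones every library lay below the lowest of WT, library 3. Without library 3 of clone 1.2, the lowest MAFF value measured, that clone's difference was -1.01 (limma adjusted p = 0.22).

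The other WM115 clones overlapped WT. MAFF was at 139, 96.0 and 94.9 TPM in clone 4.1, a difference of -0.82 (limma adjusted p = 0.32). In clone 1.3 it was at 140, 112 and 584 TPM, where the highest value came from library 3, whose ribosomal share of 11.5% was below all of WT. None of the 3 MAFF calls held when WT library 1, 2 or 4 was left out (limma adjusted p = 0.052 to 0.086), though the differences stayed between -1.46 and -1.88. The MAFF call in clone 1.1 was also lost without its library 2, 3 or 4 (limma adjusted p = 0.054 to 0.064), and that in clone 4.2 without its library 1 or 2 (limma adjusted p = 0.084 and 0.12). With the ribosomal protein share as a term the 3 differences were 0.22, 0.07 and 0.01. Since that share separated the WT libraries from those of these 3 clones, it and the clone cannot be told apart. In A375 MAFF was at 13.4 to 26.5 TPM in every library, and no difference from WT exceeded 0.34 in size.

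MAFF lies 213.3 kb from SOX10 on chromosome 22 (38200767 to 38216511, plus strand, GENCODE positions on GRCh38), the gene whose enhancers were deleted. Within 500 kb of SOX10, 29 genes other than SOX10 and MAFF were tested in WM115. Of these, 2 were called lower in clone 1.1, 4 in clone 1.2, 3 in clone 4.1, 2 in clone 4.2 and 0 in clone 1.3. In the same order, 2, 0, 3, 2 and 0 were called higher. Of all genes, 3.66%, 3.11%, 4.37%, 4.08% and 0.194% were called lower in these clones in turn, and 1.22%, 4.49%, 3.2%, 2.52% and 0.424% higher. PLA2G6, a phospholipase gene beside MAFF, was called lower in the same 3 clones as MAFF and in clone 4.1, with log2 differences of -3.08, -2.87, -2.91 and -2.73 in clones 1.1, 1.2, 4.2 and 4.1 in turn (limma adjusted p = 0.0029 to 0.013). In clone 1.3 the PLA2G6 difference was -0.38. In clone 1.2 the median difference over 399 genes of chromosome 22 was -0.45, with 79.4% of them below 0, against a median of -0.02 over all genes. In A375 0 of 28 such neighbours were called in any clone.

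**Figure D4:**
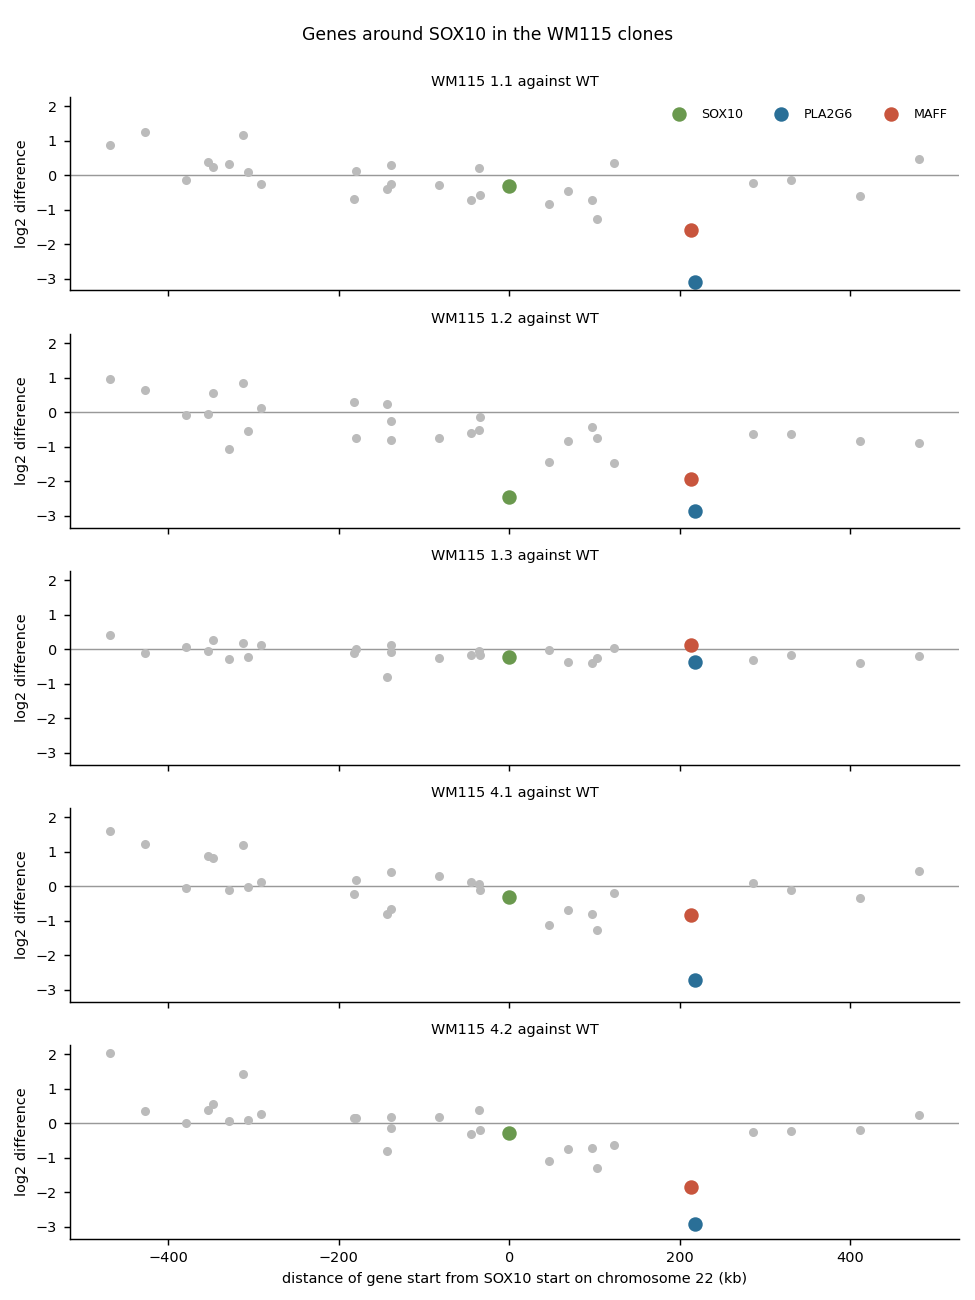
Log2 difference from WT of the genes tested within 500 kb of SOX10 in the 5 WM115 clones (panels), against the distance in kb between gene starts, with SOX10 in green, PLA2G6 in blue and MAFF in red. MAFF and PLA2G6 are the lowest 2 points in clones 1.1 and 4.2, and lie at 0.13 and -0.38 in clone 1.3.

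ATF3 was called in 1 clone. It was at 3.31, 3.53 and 6.43 TPM in WM115 clone 4.2, below the 14.1, 13.3, 8.02 and 17.1 TPM of WT, and fell by 1.38 ± 0.32 (SE) on the log2 scale (limma adjusted p = 0.0060). Clone 4.1, with 8.51, 5.30 and 7.36 TPM, and clone 1.2, with 7.47, 9.66 and 3.76 TPM, had differences of -0.79 and -0.86 and were not called. Without WT library 3 or library 2 of clone 1.2, ATF3 was called lower in clone 1.2, at -1.06 and -1.11 (limma adjusted p = 0.028 and 0.030). The call in clone 4.2 held when each library was left out, but not with the ribosomal share as a term (-0.49, limma adjusted p = 0.72). That call was also lost within the libraries of high mitochondrial share. In A375 ATF3 was at 1.21 to 10.003 TPM and was called in no clone.

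BATF3 was called in no comparison. It was at 1.90 to 5.26 TPM in A375 and at 1.98 to 8.65 TPM in WM115, and its differences from WT ran from -0.40 to 0.29 over the 9 clones. Between the WM115 R1 clones it was 1.58-fold higher in 1.1 than in 1.2 (limma adjusted p = 0.042), under the minimum difference. Without library 1 of clone 1.2 that BATF3 difference was 1.02 (limma adjusted p = 0.0025).

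**Figure D5:**
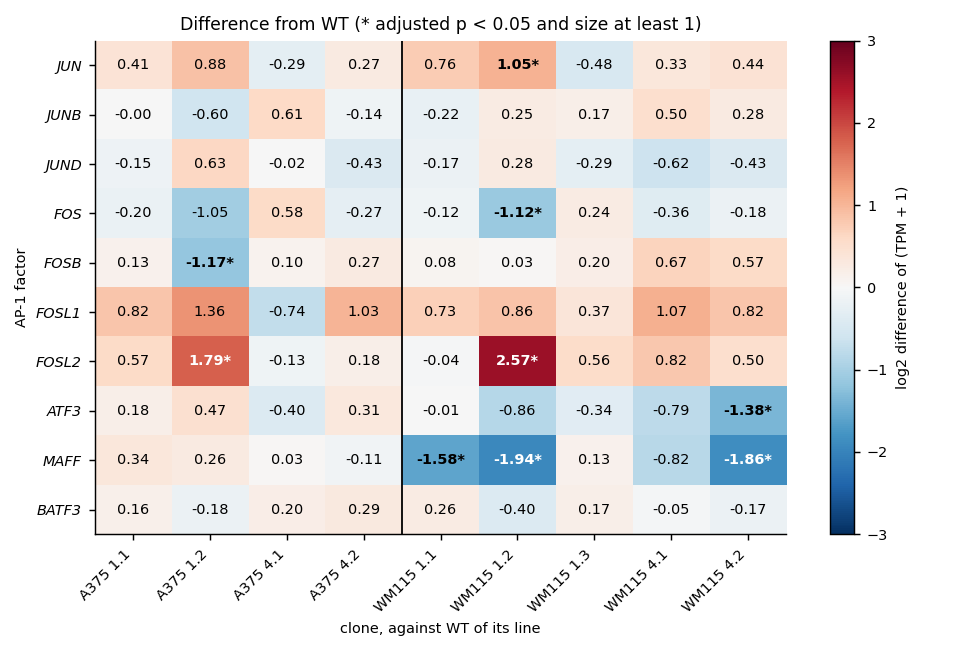
Log2 difference of TPM + 1 from WT of the same line for each gene (rows) in each clone (columns), with red for higher and blue for lower and an asterisk where the difference was called. The calls sit in clone 1.2 of both lines and in WM115 clones 1.1 and 4.2.

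Counted over members, A375 clones 1.1, 4.1 and 4.2 had 0 of 10 called, beside 0.731%, 0.653% and 0.473% of all 16692 genes. For clone 4.1, whose libraries deviated together with WT libraries of the same number, the paired fit also called 0 of 10, beside 1.61% of 15250 genes. A375 clone 1.2 had 2 of 10, FOSL2 and FOSB, beside 4.01% of all genes. In WM115, clone 1.1 had 1 of 10 beside 4.88% of 16997 genes, clone 1.2 had 4 of 10 beside 7.61%, and clone 4.2 had 2 of 10 beside 6.6%. Clones 1.3 and 4.1 had 0 of 10, beside 0.618% and 7.57%. Clone 1.2 of each line had the most members called, and among 10 members a single gene outweighs any of these background shares. The clones of a line share their WT libraries, so these counts are not independent.

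The libraries of 5 members did not overlap with WT in WM115 clones 1.2 and 4.2, beside 28.3% and 32.1% of all genes, and those of 4 members in clone 4.1, beside 36.9%. In clone 1.1 it was 2 members, beside 23.6%, and in clone 1.3 it was 0, beside 11.5%. In A375 it was 2 members in clone 1.2, 1 in clone 1.1 and 0 in clones 4.1 and 4.2, beside 13.8%, 7.41%, 7.12% and 6.52%. Between clones of a region it was 3 members for R1 and 2 for R4 in each line, beside 22.9% and 17.3% in A375 and 33.3% and 27.7% in WM115. The median member difference ranged from 0.00 to 0.37 over the A375 clones and from -0.02 to 0.17 over those of WM115. Over all genes tested the median ranged from -0.02 to 0.07 and from -0.12 to -0.02.

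Clones that lost the same region were then set against each other. The WT libraries are not part of these differences but enter the shared spread. In A375, FOSB and FOSL2 differed between 1.1 and 1.2, which made 2 of 10 members beside 6.16% of all genes. In WM115, FOSL2 and FOS did, again 2 of 10, beside 11.8% of all genes. A further 4 members, JUNB, JUND, ATF3 and BATF3, had a limma adjusted p under 0.05 there with differences of 0.45 to 0.85 in size, so that 6 of 10 passed on adjusted p alone, beside 35.5% of all genes. Between the R4 clones 0 of 10 members were called in either line, beside 2.23% in A375 and 2.63% in WM115. MAFF was 2.05-fold higher in WM115 clone 4.1 than in 4.2 without overlap, but was not called (limma adjusted p = 0.36). That MAFF difference was called when only the 2 groups were fitted, under the replicate block, and with library 3 of clones 1.2 and 1.3 both left out. The A375 call for FOSL2 was lost without library 2 of clone 1.1 or library 4 of clone 1.2, with differences of -1.07 and -0.92 (limma adjusted p = 0.073 and 0.032, the latter under the minimum size). It was also lost when only the 2 groups were fitted (limma adjusted p = 0.052) and under the replicate block (-0.92). Within the libraries of low mitochondrial share neither A375 call held, with differences of 1.07 for FOSB and -0.72 for FOSL2 (limma adjusted p = 0.22 and 0.33). The WM115 call for FOS was lost when only the 2 groups were fitted, under the replicate block and with the division into high and low mitochondrial share as a term (limma adjusted p = 0.072, 0.091 and 0.069), and within the libraries of high mitochondrial share (0.77, limma adjusted p = 0.28).

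With the clone as the unit, 8 clones and the WT means of both lines were compared, with line as a covariate and clone 1.3 left out. No member was called for R1 against WT, R4 against WT, R1 against R4, or the difference between the lines in R1 against R4, and neither was any of the 18662 genes (0% each). An unadjusted p under 0.05 was reached by 338, 487, 862 and 555 genes in turn. JUN was 0.77 ± 0.22 (SE) higher in R1 clones than in WT on the log2 scale (limma adjusted p = 1). For R1 against R4, JUN was 0.59 and JUND 0.52 higher in R1 clones and FOSB was 0.63 lower (limma adjusted p = 0.95 each). FOSL2 was 1.22 ± 0.61 (SE) higher in R1 clones than in WT (limma adjusted p = 1), with the clones 1.1 and 1.2 far apart as given above.

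Ordered by group mean, MAFF was highest in the 6 WM115 groups and lowest in the 5 A375 groups, with no overlap between WM115 clone 4.2 (54.6 TPM) and the next group, A375 clone 1.1 (21.6 TPM), although library 3 of WM115 clone 1.2 lay below all of A375. JUN followed the same order of lines, from 37.3 TPM in WM115 clone 1.2 to 4.77 TPM in A375 clone 4.1, but each neighbour in the order overlapped the next. JUNB was led by A375 clone 4.1 (138 TPM), which did not overlap the next group, and ended with WM115 clone 1.1 (39.03 TPM). Library 3 of A375 WT (117 TPM), further down the order, lay above the lowest library of that leading clone (112.5 TPM). JUND was led by A375 clone 1.2 (209 TPM) and WM115 clone 1.2 (176 TPM), each without overlap with the group after it. Library 2 of A375 WT (201 TPM) and library 2 of A375 clone 4.1 (198.5 TPM) nevertheless lay within the range of A375 clone 1.2. FOSB was led by A375 clones 4.2, 4.1, 1.1 and WT (8.60 to 7.08 TPM), and WT did not overlap the next group, WM115 clone 4.1 (3.46 TPM), although library 3 of A375 clone 4.1 (4.27 TPM) lay within that group's range. A375 clone 1.2 stood among the WM115 groups. For FOS, FOSL1, FOSL2, ATF3 and BATF3 every group overlapped its neighbour in the order.

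For each member the genes of most similar pattern were taken over the 39 libraries, after centring each line, among 11260 genes with a mean of at least 5 TPM. These correlations describe libraries that share clones, depth and composition. JUN was closest to CCN2 (r = 0.83), which encodes the matricellular protein CTGF, and to DKK1 (0.81), a secreted WNT inhibitor. FOSL1 was closest to DRAP1 (0.90), a transcription repressor gene that starts 18.7 kb away on chromosome 11, and to THBS1 (0.90), the gene of thrombospondin 1. FOSL2 was closest to MYADM and MYLK (0.89 each), the latter the gene of myosin light chain kinase. FOS was closest to THBS2 (0.87) and EBF3 (0.85), and FOSB to MSC and CEMIP2 (0.82 each). JUNB was closest to PHLDA1 (0.82) and CHRDL1 (0.80), and JUND to HDAC11 (0.89) and HEBP1 (0.88). ATF3 was closest to NANS and to SLC3A2, an amino acid transporter subunit (0.82 each), and MAFF to DAB2 (0.85) and PIM3 (0.84), a kinase gene on chromosome 22 far from MAFF. BATF3 had the weakest likeness, with SCLY (0.75) and WDR12 (0.74).

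Genes known as AP-1 targets had more calls of higher than of lower level in WM115. Of 18 tested in WM115, 7 were called higher and 2 lower in clone 1.2, 9 and 1 in clone 4.1, 8 and 1 in clone 4.2, 3 and 2 in clone 1.1, and 0 in clone 1.3, with medians of 0.38, 1.303, 1.09, -0.02 and 0.36 beside -0.02, -0.10, -0.10, -0.12 and -0.03 over all genes. Of all genes, 4.49% were called higher and 3.11% lower in clone 1.2, 3.2% and 4.37% in clone 4.1, 2.52% and 4.08% in clone 4.2, 1.22% and 3.66% in clone 1.1, and 0.424% and 0.194% in clone 1.3. IL11, a cytokine gene, rose in WM115 clones 1.1, 4.1 and 4.2 and in A375 clone 4.1, by 1.06, 2.70, 1.67 and 1.22 on the log2 scale. SPP1, the gene of osteopontin, fell in WM115 clones 1.2, 4.1 and 4.2 with differences of -2.45, -4.92 and -5.64 and rose in A375 clone 1.2 by 2.38. In A375 the counts over 16 tested targets were 1 higher in clone 1.1, 2 higher and 1 lower in clone 1.2, 3 higher in clone 4.1 and 1 higher in clone 4.2. Of all genes, 0.186%, 2.57%, 0.246% and 0.108% were called higher in these A375 clones in turn, and 0.545%, 1.44%, 0.407% and 0.365% lower. The ribosomal share differs between WM115 WT and these clones as given above, and its part in the calls of this list was not tested.

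Among 19 other immediate early genes tested in each line, A375 had 1 call of higher and 2 of lower level over its 4 clones, and WM115 had 6 and 2 over its 5 clones. The A375 calls were all in clone 1.2, beside 4.01% of all genes there, and between 0.618% and 7.61% of all genes were called in the WM115 clones. CCN1, which encodes a matricellular protein, rose in clone 1.2 of both lines, by 2.35 in A375 and 2.42 in WM115 (limma adjusted p = 0.0012 and 0.028). EGR3, a zinc finger gene induced by ERK, fell in the same clones, by 1.73 and 2.21 (limma adjusted p = 0.00010 and 0.028). EGR1 fell by 1.995 in A375 clone 1.2 and rose by 1.68 in WM115 clone 4.2 (limma adjusted p = 0.013 and 0.043).

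Of 13 kinases upstream of AP-1, MAP2K2, the gene of MEK2, fell by 1.097 in A375 clone 4.1, and RPS6KA1, the gene of the ERK-activated kinase RSK1, rose by 1.06 in WM115 clone 4.1 (limma adjusted p = 3.2e-05 and 0.0015); these were the 2 calls over all clones. Of 13 related bZIP factors, 1 call was higher and 1 lower in A375, and 1 higher and 6 lower in WM115. These counts cover 52 tests of gene and clone in A375 and 65 in WM115, as do those of the kinases. Of all genes, 0.473% to 4.01% were called in the A375 clones and 0.618% to 7.61% in the WM115 clones. BATF, a Jun partner known from lymphocytes, fell from a mean of 6.05 TPM in WM115 WT to 0.108, 0.681, 0.703 and 0.058 TPM in clones 1.1, 1.2, 1.3 and 4.2 (limma adjusted p = 3.1e-06 to 0.0010), and was at 0.0192 TPM in A375 WT. MAF, a large Maf gene, fell in clone 1.2 of both lines, by 2.60 in A375 and 1.75 in WM115.

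Of 14 genes of the integrated stress response, 1 was called higher in A375: SLC7A11, a cystine transporter gene, by 1.46 in clone 1.1. In WM115, 3 calls were higher and 2 lower. These counts cover 56 tests of gene and clone in A375 and 70 in WM115. Per clone, 0.473% to 4.01% of all genes were called in A375 and 0.618% to 7.61% in WM115. DDIT4, an inhibitor of mTORC1, rose by 1.15 and 1.47 in WM115 clones 1.1 and 4.2, and PSAT1, a serine synthesis gene, fell by 1.16 in clone 1.2. Melanocytic genes gave 23 lower calls and 1 higher in WM115 over 11 genes tested, and 1 lower in A375 over 4. The lower calls in WM115 were 3 in clone 1.1, 5 in clone 1.2, 8 in clone 4.1 and 7 in clone 4.2, beside 3.66%, 3.11%, 4.37% and 4.08% of all genes, and the A375 call was in clone 1.1, beside 0.545%. MITF, the master regulator of pigment cells, fell in WM115 clones 1.2, 4.1 and 4.2, with differences of -2.01, -3.40 and -2.80, and in A375 clone 1.1, with one of -1.31. DCT, a melanin synthesis gene, fell in the same 3 WM115 clones, with differences of -5.70, -6.50 and -6.89, and TRPM1 with -1.21 to -1.22 in clones 1.1, 1.2, 4.1 and 4.2. Among SOX10 and genes around it, 6 of 85 tests of gene and clone were called lower in WM115, and 0 of 64 in A375. The 6 were SOX10 and BAIAP2L2 in clone 1.2 and PLA2G6 in 4 clones, beside the shares called lower given above.

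Markers of other cell types were examined because AP-1 genes are expressed in many of them. Fibroblast markers summed to 16.2 to 21.8 TPM in A375 clone 1.2, against 6.95 to 14.3 TPM in WT. In that clone 2 of 5 tested were called higher, beside 2.57% of all genes. In WM115 clone 1.2 these markers summed to 482 to 839 TPM against 461 to 675 TPM in WT. Of 8 tested, 3 were called higher and 1 lower, beside 4.49% and 3.11% of all genes. COL1A2, at 545 TPM in WM115 WT and 0.0912 TPM in A375 WT, made up most of the WM115 sum, while COL1A1 had a mean of 0.418 TPM in WM115 WT. Leukocyte markers summed to 91.9 to 170 TPM in A375 clone 1.2 and 26.6 to 122 TPM in WT, with 0 called. CD68 made up most of these sums, with means of 127 TPM in clone 1.2 and 49.0 TPM in WT. LYZ had means of 5.42 TPM in A375 WT and 0.312 TPM in WM115 WT. PTPRC, CD3E and CD79A had means under 1 TPM in both lines. Keratinocyte markers gave 0 calls in A375 and 3 in WM115, all higher: TP63 in clone 1.2 and KRT14 in clones 4.1 and 4.2. Of all genes, 4.49%, 3.2% and 2.52% were called higher in these clones in turn. KRT10 had group means of 43.3 to 82.1 TPM, and KRT14 had means of 10.6 TPM in A375 WT and 0.2265 TPM in WM115 WT. KRT1, KRT5, TP63 and CDH1 were under 1 TPM on average over each line. In WM115 clone 1.2, however, TP63 had a mean of 3.43 TPM, against 0.102 TPM in WT. Endothelial markers gave 3 higher calls in WM115, all of PECAM1 and in the same clones 1.2, 4.1 and 4.2. CDH5 and VWF were under 1 TPM on average over each line, though CDH5 had a mean of 1.66 TPM in WM115 clone 1.2. Whether these genes and the FOSL2 rise in clone 1.2 are related was not tested.

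The transcript table placed each gene's RNA on annotated isoforms. JUN and JUNB are single-exon genes with 1 listed transcript each. JUND was split between JUND-201 (65.8% to 74.1% of the gene's TPM by group) and JUND-202. FOSL1-201, the full-length protein-coding form, gave 55.6% to 64.8% in A375 and 63.2% to 65.2% in WM115. FOSL2-201 gave 73.9% of FOSL2 in A375 clone 1.2 and 68.7% in WT, and in WM115 71.7% in WT. MAFF-201 gave 96.5% to 99.0% in every group. FOSB was spread over more isoforms, with FOSB-201 at 49.5% to 59.0% in A375 and FOSB-211 at 15.0% to 30.0%. FOS-201 gave 67.0% to 95.4% in A375 and 64.0% to 85.1% in WM115, BATF3-201 85.0% to 99.5% and 95.3% to 99.3%, and ATF3-202 61.3% to 79.6% and 70.0% to 82.6%.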

How the data were processed

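The authors deposited TPM values per gene and per transcript, and per the submitters' processing notes the reads were processed with DRAGEN on GRCh38; the annotation release is not given in the sources used here. Per the labels' protocols, polyadenylated RNA was selected from total RNA, reverse transcribed with random hexamers and amplified by PCR. Since TPM keeps no depth, the read depth per library is unknown and no counting error is given. The gene and transcript tables each hold 6 columns of values that match no sample and were not used, and the 200 repeated lines of the gene table and 1123 of the transcript table were dropped.

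Genes with at least 1 TPM in at least 3 libraries of a line were tested on log2(TPM + 1), pseudocount 1, with limma 3.58.1 in R 4.3.3 (two-sided, variance trend, Benjamini-Hochberg adjustment over all genes tested). Each line was fitted alone with 1 coefficient per group, the unedited lines were compared in a fit of all 39 libraries, and clone means were fitted with line as a covariate. The procedure was tested on simulated data. Tables were handled with Python 3.11.15. Gene positions come from GENCODE 29. The members and lists were chosen with earlier results of these data known. Named genes are all members, the 2 genes most alike to each, the 3 genes per list with the most clones called, SOX10, and transcripts with at least 10% of a member's TPM in a group; BATF's low level in A375 and the marker genes are named after their values were seen. Some genes that this rule names are not reported here. Alternatives changed the pseudocount, filter, scaling, threshold, groups and libraries fitted, and covariates, and added a replicate block. Replicate numbers deviated together only between A375 clone 4.1 and WT (correlations of 0.326 to 0.776 over 4 pairs), where the paired fit called no member, beside 1.61% of all genes. In each of these pairs FOSL1 and JUN were lower and JUNB was higher in clone 4.1, while the other members differed in direction between pairs.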

Additional observations from a re-analysis of the deposited data

Results flagged for a closer look

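JUND was at 201.22 TPM in library 2 of A375 WT, while the other 3 libraries of that group were at 110.87 to 124.61 TPM, a gap of 0.848 of the group's range. JUND was also at 108.04 TPM in library 4 of WM115 clone 1.1, below the 129.53 to 137.1 TPM of the other 4 libraries, a gap of 0.739 of the range. These were the 2 values that stood apart by Dixon's test among 50 combinations of member and group with at least 4 libraries, where chance gives about 1 in 20.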

How the results depend on the processing

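Of 4639 values of the members under alternatives, 4532 kept their side of the threshold, 64 lost a call, 40 gained one, and 3 called values reversed. Uncalled values that changed sign, 126 in number, are not counted as reversals. The reversals were MAFF in WM115 clones 1.1, 1.2 and 4.2 with the ribosomal protein share as a term, an alternative chosen after seeing the data (0.223, 0.0733 and 0.0059). That term left 0 of the 7 calls against WT in WM115, 1 of the 2 between clones of a region in WM115, and 2 of the 4 between the unedited lines. The share of all genes called fell with it, from 4.88% to 2.29% in WM115 clone 1.1 against WT. In clones 1.2 and 4.2 it fell from 7.61% to 0.141% and from 6.6% to 0.624%. Between WM115 clones 1.1 and 1.2 the share was 11.5% (main 11.8%), and between the unedited lines 27.1% (main 20%). The replicate block gave 1 call against WT in A375 (main 2), 1 between clones in A375 (main 2) and 4 against WT in WM115 (main 7). Of all genes, the block called 2.65% in A375 clone 1.2 (main 4.01%) and 4.11% between A375 clones 1.1 and 1.2 (main 6.16%). In WM115 clones 1.1, 1.2 and 4.2 it called 7.23%, 0.807% and 6.52% (main 4.88%, 7.61% and 6.6%). Only libraries of low mitochondrial share gave 1 and 0 in A375. Of all genes, 0.779% were called there in A375 clone 1.2 against WT and 1.01% between clones 1.1 and 1.2. In WM115 only libraries of high mitochondrial share, which include all WT libraries, kept the call of FOSL2 in clone 1.2 against WT. The calls of MAFF in clones 1.1, 1.2 and 4.2, of JUN and FOS in clone 1.2 and of ATF3 in clone 4.2 were lost there. Of all genes, 2.22%, 5.38% and 3.4% were called there in clones 1.1, 1.2 and 4.2. Fitting only the 2 groups gave 1 between clones in A375, no filter gave 3 against WT in WM115, and no minimum difference gave 6 between clones in WM115. With only the 2 groups, 5.84% of all genes were called between A375 clones 1.1 and 1.2. No filter called 1.91%, 3.01% and 2.47% in WM115 clones 1.1, 1.2 and 4.2, and no minimum difference 35.5% between clones 1.1 and 1.2. Leaving out single libraries gave 2 to 4 calls against WT in A375, with 4 without WT library 4, and 2 to 11 in WM115, with 2, 3, 11 and 3 without WT libraries 1, 2, 3 and 4. Between clones of a region it gave 1 to 3 in each line, and between the unedited lines 4 to 5. In WM115 the call count between clones was 1 without library 1 or 2 of clone 1.1 or library 3 of clone 1.2. The cause of these changes was not tested. Another scaling, by median of ratios, moved the median of all genes from -0.12 to -0.02 in WM115 clone 1.1 and from -0.10 to 0.00 in clone 4.1. Depth is unknown, so TPM values near 1, as for FOS and FOSB in some WM115 libraries, carry an error that cannot be given.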
